A study of Mus musculus with 12 samples.

Results

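Adrenergic receptors are the cell surface proteins that bind noradrenaline and adrenaline, and 8 of their genes were followed here among the 38924 genes of the count tables. They are the beta receptor genes Adrb1 and Adrb3, the alpha-1 receptor genes Adra1a, Adra1b and Adra1d, and the alpha-2 receptor genes Adra2a, Adra2b and Adra2c. They were listed by name, with earlier results of these data known, and each was found once by its symbol. RNA was sequenced from sorted cells of C57BL/6 mice that carried a ROSAmTmG reporter with Myf5-Cre or with Ucp1-iCre. In such mice a cell that has expressed the recombinase, and its descendants, carry membrane GFP. Each line gave mammary myoepithelial cells with and without GFP, sorted as Lin-, CD24+ and CD29hi cells at lactation day 10, and GFP-positive brown adipocytes of 8-week-old virgin females. Each of the 6 groups had 2 libraries, 12 in all. Every group carried the reporter and a recombinase, and no line without one was analysed here. Lactation and tissue went together, since the brown adipocytes came from virgin mice, and no GFP-negative brown adipocytes were analysed here. The labels do not say whether the 2 libraries of a group came from different animals, so each p-value reflects no more than the scatter of these libraries, which may be technical.

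Beta receptors couple mainly to Gs, which turns on adenylyl cyclase, raises cAMP and activates protein kinase A. Alpha-1 receptors couple mainly to Gq and phospholipase C and raise calcium in the cell, and alpha-2 receptors couple mainly to Gi, which lowers cAMP. In brown fat, noradrenaline from sympathetic nerves acts on the beta-3 receptor and starts lipolysis and heat production. Myoepithelial cells are contractile cells around the milk-producing alveoli, and oxytocin is the hormone best known to contract them.

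The start regions of the receptor genes differed in base composition. RefSeq entries on GRCm38.p6 were matched for 5 of the 8 genes (Adrb1, Adra1b, Adra2a, Adra2b and Adra2c). Adrb1, Adra1b and Adra2b are printed because they carry the contrasts below: a beta receptor gene counted in both tissues, and alpha receptor genes counted mainly in mammary libraries. Each line holds the 250 bases upstream of a RefSeq start, on the strand of the gene, at chr19:56721867-56722116 (plus), chr11:43901238-43901487 (minus) and chr2:127362929-127363178 (plus). All lie outside the GENCODE gene. Capitals mark motif matches on either strand, and adjoining matches run together. The GC box was searched as the letters GGGCGG. The CCAAT box was searched as the letters of its name. The TATA box was searched as the letters TATAAA. The cAMP response element was searched as the letters TGACGTCA.
Adrb1: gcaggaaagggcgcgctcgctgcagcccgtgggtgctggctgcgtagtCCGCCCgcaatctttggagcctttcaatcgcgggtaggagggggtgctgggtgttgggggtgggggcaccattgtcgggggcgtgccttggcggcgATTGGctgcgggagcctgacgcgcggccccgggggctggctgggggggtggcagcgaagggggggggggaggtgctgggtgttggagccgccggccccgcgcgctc
Adra1b: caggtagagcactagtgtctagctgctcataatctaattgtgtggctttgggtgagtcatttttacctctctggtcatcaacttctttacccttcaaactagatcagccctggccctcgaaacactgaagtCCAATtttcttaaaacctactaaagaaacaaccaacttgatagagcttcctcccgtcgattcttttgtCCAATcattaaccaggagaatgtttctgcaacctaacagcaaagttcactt
Adra2b: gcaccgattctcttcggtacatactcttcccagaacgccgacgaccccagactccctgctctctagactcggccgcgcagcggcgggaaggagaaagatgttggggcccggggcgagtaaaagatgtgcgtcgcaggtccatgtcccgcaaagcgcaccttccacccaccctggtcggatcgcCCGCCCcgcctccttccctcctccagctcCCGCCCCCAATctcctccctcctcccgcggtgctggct
The Adrb1 window is 74.0% G and C, more than 95.1% of all RefSeq windows of this length. The Adra2b window is 66.0% G and C, more than 84.5% of them, and the Adra1b window is 41.6%, more than 14.9%. The Adra1b window holds 2 CCAAT boxes and no GC box, Adrb1 holds 1 of each, and Adra2b holds 2 GC boxes and 1 CCAAT box. No match to the TATA box or the cAMP response element is in any of the 3 windows. Among all 32851 windows, 32.7% hold a GC box, 33.9% a CCAAT box, 12.4% a TATA box and 1.55% a cAMP response element. A match is a description of the letters. Adra1b has a second RefSeq start inside the gene, and its window is not printed. That window is 72.8% G and C, more than 94.0% of all windows, with 1 GC box and 0 CCAAT boxes. The low G and C content thus belongs to 1 of the 2 Adra1b starts, and counts per gene do not separate the starts.

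Library totals ran from 11027738 to 32956480 counts. Levels are in CPM, the counts relative to each total after TMM scaling. A count of 0 allows a level of up to 0.0728 to 0.366 CPM (3 counts, counting error only), depending on the library. Both Ucp1 GFP-positive mammary libraries differed from the rest, with a count for 10909 and 10560 genes against 13761 to 19794 in the other 10. Their log2 levels correlated at r = 0.69 with each other over 16953 genes, where replicates of the other 5 groups correlated at 0.845 to 0.984. The myoepithelial keratin genes Krt5 and Krt14 were counted in all 8 mammary libraries and at 0 in all 4 brown libraries. The brown adipocyte markers Cidea, Ucp1 and Elovl3 were at 815 CPM or more, 949.8 CPM or more and 424 CPM or more in the 4 brown libraries, and Ucp1 was at 0 in all 4 GFP-positive mammary libraries. Markers of other cell types were present: the summed endothelial markers (6 genes) were at 717 to 5114 CPM in mammary and 11.0 to 2315 CPM in brown libraries, and the summed fibroblast markers (6 genes) at 190 to 17740 CPM in mammary libraries. In such bulk samples, fewer cells of a type and less RNA per cell cannot be told apart.

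Adrb3 (ENSMUSG00000031489, chr8:27225776-27250616, minus strand, mm10) encodes the beta-3 receptor of adipocytes and was the most abundant receptor gene of the brown adipocytes. It stood at 710.7 and 649.6 CPM in the Myf5 brown libraries and at 32.4 and 145 CPM in the Ucp1 brown libraries. In the GFP-negative myoepithelial libraries it was at 0 and 0.728 CPM in the Myf5 line and at 0.872 and 1.01 CPM in the Ucp1 line. All 4 brown libraries lay above all 4 GFP-negative libraries. The GFP-positive myoepithelial libraries lay between or below: 13.7 and 19.7 CPM in the Ucp1 line, from 372 and 813 counts, and 0 and 6.61 CPM in the Myf5 line, from 0 and 188 counts. Both Ucp1 GFP-positive libraries therefore lay above both of their GFP-negative partners, whereas the Myf5 libraries overlapped.

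Adrb1 (ENSMUSG00000035283, chr19:56722199-56733113, plus strand), the beta-1 receptor gene best known from the heart, was at 25.6 and 27.9 CPM in Myf5 brown and at 7.35 and 3.40 CPM in Ucp1 brown libraries. In GFP-negative myoepithelial cells it was at 4.51 and 4.61 CPM in the Ucp1 line, and at 0 and 3.36 CPM in the Myf5 line. The ranges of brown and GFP-negative myoepithelial libraries overlapped. In GFP-positive myoepithelial cells it was at 0 and 2.01 CPM in the Myf5 line and at 0.0368 CPM (1 count) and 0 in the Ucp1 line.

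Adra1a (ENSMUSG00000045875, chr14:66635251-66771168, plus strand), an alpha-1 receptor gene, was the second receptor gene that was high in brown adipocytes. It was at 69.8 and 96.4 CPM in Myf5 brown and at 7.66 and 29.1 CPM in Ucp1 brown libraries, against 0 and 0.202 CPM in Myf5 GFP-negative and 0.901 and 0.275 CPM in Ucp1 GFP-negative myoepithelial cells. The brown and GFP-negative libraries did not overlap. Both Myf5 GFP-positive myoepithelial libraries held it, at 6.79 and 4.75 CPM, above both of their GFP-negative partners. The 2 Ucp1 GFP-positive libraries differed from each other, at 6.95 CPM from 189 counts and at 0.0243 CPM from 1 count.

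Adra1b (ENSMUSG00000050541, chr11:43774606-43901210, minus strand) had another pattern. It was at 2.18 and 8.80 CPM in the Myf5 GFP-positive myoepithelial libraries (35 and 250 counts) and at 1.17 and 1.62 CPM in the Ucp1 GFP-negative libraries (39 and 53 counts). It was at 0 counts in both Myf5 GFP-negative, both Ucp1 GFP-positive and both Myf5 brown libraries, and at 0 and 2 counts in the Ucp1 brown libraries. Within the Myf5 line the GFP-positive cells were thus the higher ones, and within the Ucp1 line the GFP-negative cells.

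Adra1d (ENSMUSG00000027335, chr2:131545850-131562283, minus strand), the remaining alpha-1 receptor gene, was low wherever it was counted, at 1.71 and 0.641 CPM in Myf5 brown, 0.105 and 0.595 CPM in Ucp1 brown and 0.601 and 1.25 CPM in Ucp1 GFP-negative libraries. The other 6 libraries held 0 counts, apart from 5 counts in 1 Myf5 GFP-positive library. It was also the only one of the 8 genes whose exons share bases with a gene on the opposite strand, 7.74% with Gm14285.

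Among the alpha-2 receptor genes, Adra2a (ENSMUSG00000033717, chr19:54044151-54048982, plus strand) was at 4.99 and 5.23 CPM in Ucp1 GFP-negative myoepithelial cells and at 0.685 and 14.2 CPM in Myf5 GFP-positive cells. It was at 0 and 0.809 CPM in Myf5 GFP-negative cells, at 1 and 0 counts in Ucp1 GFP-positive cells and at 6 and 3 counts in Ucp1 brown adipocytes. Neither Myf5 brown library held a count. Adra2c (ENSMUSG00000045318, chr5:35278319-35281763, plus strand) was at 1.38 and 1.89 CPM in Ucp1 GFP-negative cells and at 0 and 1.94 CPM in Myf5 GFP-positive cells. Its other 8 libraries held 0 to 2 counts, except for 26 counts in 1 Myf5 GFP-negative library. Both genes were thus counted in some mammary libraries, including both of the Ucp1 GFP-negative cells. They were nearly absent from the brown libraries and also from both Ucp1 GFP-positive mammary libraries (1 and 0 counts of each gene).

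Adra2b (ENSMUSG00000058620, chr2:127363208-127367221, plus strand) differed widely between replicates. It had 308 and 26 counts (19.2 and 0.915 CPM) in Myf5 GFP-positive and 13 and 1814 counts (0.478 and 44.0 CPM) in Ucp1 GFP-positive myoepithelial cells. In GFP-negative cells it was at 5.68 and 1.01 CPM in the Myf5 line and at 3.21 and 1.74 CPM in the Ucp1 line. It was at 0 in both Myf5 brown libraries and at 2 and 6 counts in the Ucp1 brown libraries. The 4 GFP-negative libraries lay above the 4 brown ones, while within each GFP-positive group 1 library carried nearly all of the counts.

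**Figure D1:**
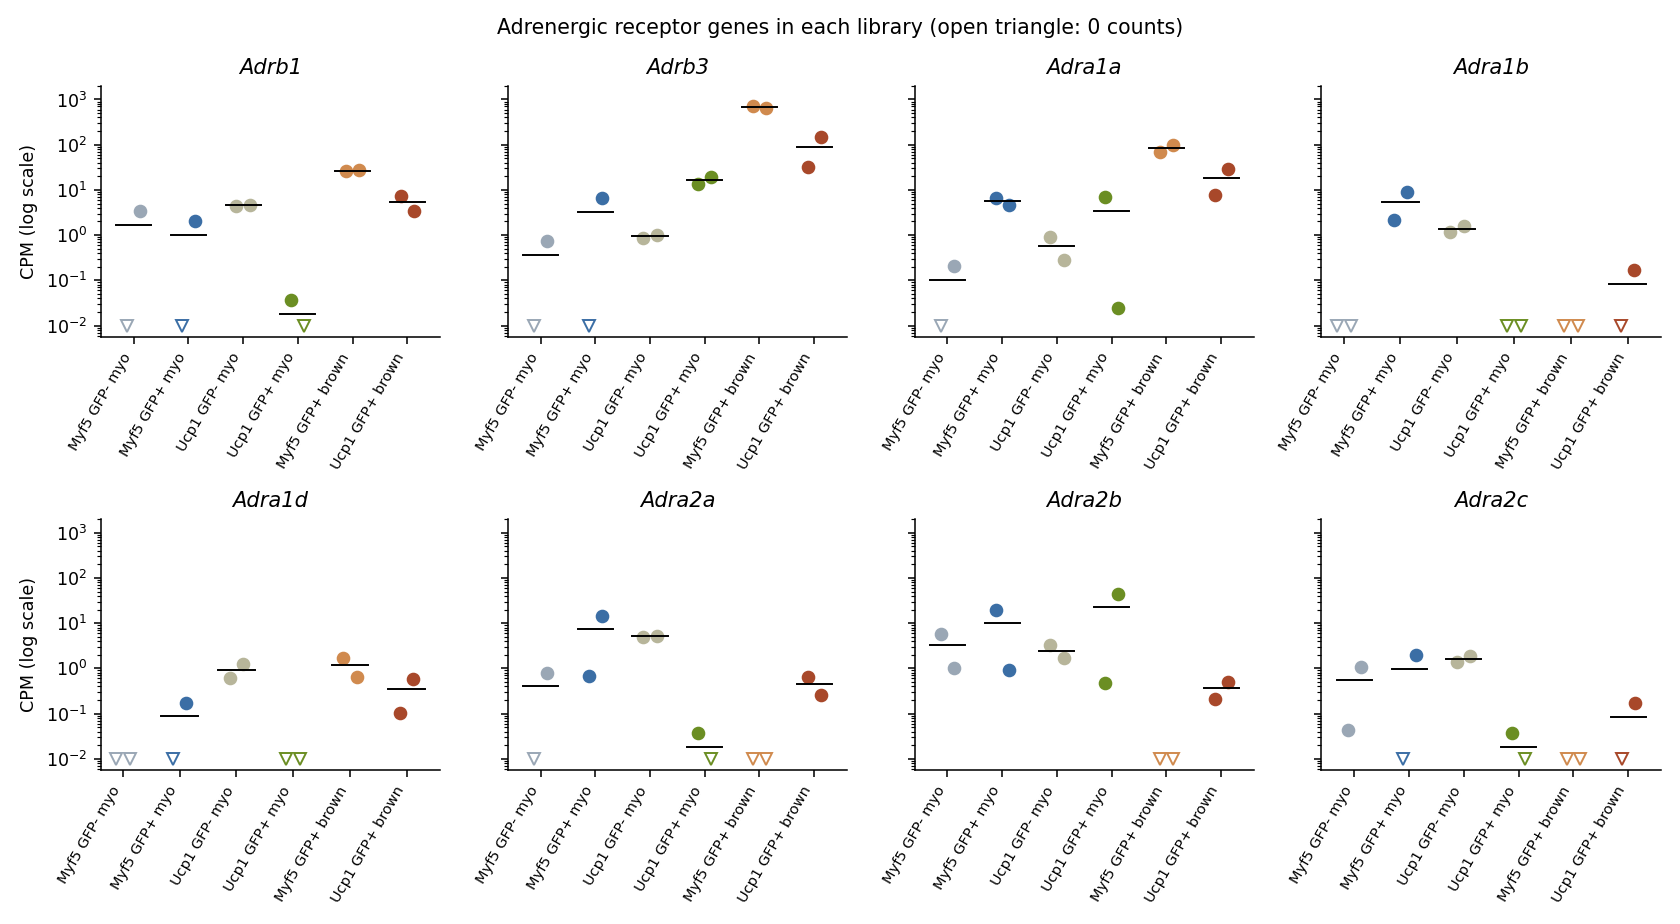
Level of each receptor gene in each of the 12 libraries, in CPM on a log axis. Each dot is 1 library, an open triangle at the foot marks 0 counts, a line marks the mean of the 2 libraries, and myo stands for myoepithelial cells. Adrb3 and Adra1a are highest in the brown libraries, whereas Adra2a, Adra2b and Adra2c are at 0 in both Myf5 brown libraries.

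The comparison of the 4 brown libraries with the 4 GFP-negative myoepithelial libraries sets the traced fat cells beside untraced mammary cells. Adrb3 was higher in brown adipocytes, with a log2 fold change of 8.69 (standard error, SE, 1.54, adjusted p = 0.00402 by edgeR's quasi-likelihood test). Mean levels were 384 ± 346 against 0.652 ± 0.450 CPM (SD, n = 4 and 4). Adra1a was higher by 7.27 on the log2 scale (SE 1.60, edgeR adjusted p = 0.0103), at 50.7 ± 39.9 against 0.345 ± 0.389 CPM. Adrb1 did not pass the test, at a log2 fold change of 2.11 (SE 1.49, edgeR adjusted p = 0.336, 95% interval -0.81 to 5.04). In all, 2 of the 8 receptor genes were called higher and 0 lower, and 12% of the 16953 genes tested were called higher (26.6% in either direction). Both lay above without overlap, as did 18% of all genes. The Adra1a call was lost without Myf5 GFP-negative replicate 1 (edgeR adjusted p = 0.0527), without Ucp1 GFP-negative replicate 1 (0.0575) and without its replicate 2 (0.0703), at log2 fold changes of 6.79, 7.80 and 6.95.

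No alpha-2 receptor gene was called lower in brown adipocytes in that fit, in which edgeR adjusted p-values were 0.1033 for Adra2a, 0.0571 for Adra2b and 0.107 for Adra2c. At an unadjusted p under 0.05 there were 6 of the 8 receptor genes, all 3 alpha-2 genes among them, against 38.9% of all genes. With only the 2 tissues compared in the fit, edgeR called the same 6 genes, adding Adra1d (higher, adjusted p = 0.0451) and Adra2a (0.0373), Adra2b (0.00470) and Adra2c (0.0295), all lower, against 51% of the 16117 genes then tested. The higher level of Adra1d rests on the Myf5 line, whose GFP-negative libraries both held 0 counts. Within the Ucp1 line Adra1d was lower in brown adipocytes, at 0.105 and 0.595 against 0.601 and 1.25 CPM. Adra2b did not overlap, with every GFP-negative library above every brown one. This was the 1 receptor gene of 8 that lay lower in brown adipocytes without overlap, against 19.4% of all genes tested. Adra2a had 9 counts over the 4 brown and 357 over the 4 GFP-negative libraries, and overlapped. From 2 counts over the 4 brown libraries, Adra2c was 24.1-fold lower there, with an exact 95% counting interval of 6.54 to 201, and Adra1b 16.4-fold lower (4.42 to 137.5). Both genes overlapped between the tissues. All GFP-negative counts of Adra1b came from the Ucp1 line (39 and 53), and both Myf5 GFP-negative libraries held 0. The ratio of Adra1b thus rests on 1 line, and edgeR did not call it (SE 2554, adjusted p = 0.9999).

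Within the Myf5 line, traced myoepithelial cells were set against traced brown adipocytes. Adrb3 was lower in the myoepithelial cells by 7.66 on the log2 scale, a log2 fold change of -7.66 (SE 2.07, edgeR adjusted p = 0.0314), at 3.31 ± 4.68 against 680.2 ± 43.2 CPM (SD, n = 2 and 2). Adra1b was at least 35.0-fold higher in the myoepithelial cells, measured against 3 counts over both brown libraries (edgeR adjusted p = 0.0432). These were the 2 of 8 receptor genes called, and 19.8% of all genes tested were called. Adra1b, Adra2a and Adra2b lay higher in the myoepithelial cells without overlap, 3 of 8 against 33.1% of all genes. Adrb1, Adrb3, Adra1a and Adra1d lay lower, 4 of 8 against 33.8%. The bound was at least 47.4-fold for Adra2a and at least 64.0-fold for Adra2b. The Adrb3 call was lost without Myf5 GFP-positive replicate 1 (adjusted p = 0.0629) and without Myf5 brown replicate 1 (0.0925) or 2 (0.0792). That of Adra1b was lost without any one of the 4 libraries (edgeR adjusted p = 0.0638 to 0.183). Without the Ucp1 GFP-positive myoepithelial libraries in the fit, 5 of the 8 were called, Adra1a among them (log2 fold change -3.85, edgeR adjusted p = 0.0118). The share of all genes called in that reduced fit is not given here, and the 19.8% belongs to the fit of all libraries.

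Within the Ucp1 line, none of the 8 receptor genes was called between GFP-positive myoepithelial cells and brown adipocytes (smallest edgeR adjusted p = 0.0649), while 27.8% of all genes tested were. At an unadjusted p under 0.05 there were 3 of 8 receptor genes, against 41% of all genes. DESeq2 called 2 and limma-voom 3, and the share of all genes that these tools called is not given here. In both libraries 5 of the 8 lay lower than in brown adipocytes, against 41.1% of all genes. Adrb3 was lower in the myoepithelial cells in every library, at 16.7 ± 4.28 against 88.6 ± 79.4 CPM, but the log2 fold change of -2.41 did not pass (SE 1.63, edgeR adjusted p = 0.297, 95% interval -5.59 to 0.78). Adrb1 had 1 count over both myoepithelial libraries and 110 over both brown libraries, a ratio of 353.5 with an exact 95% counting interval of 62.2 to 14090.

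**Figure D2:**
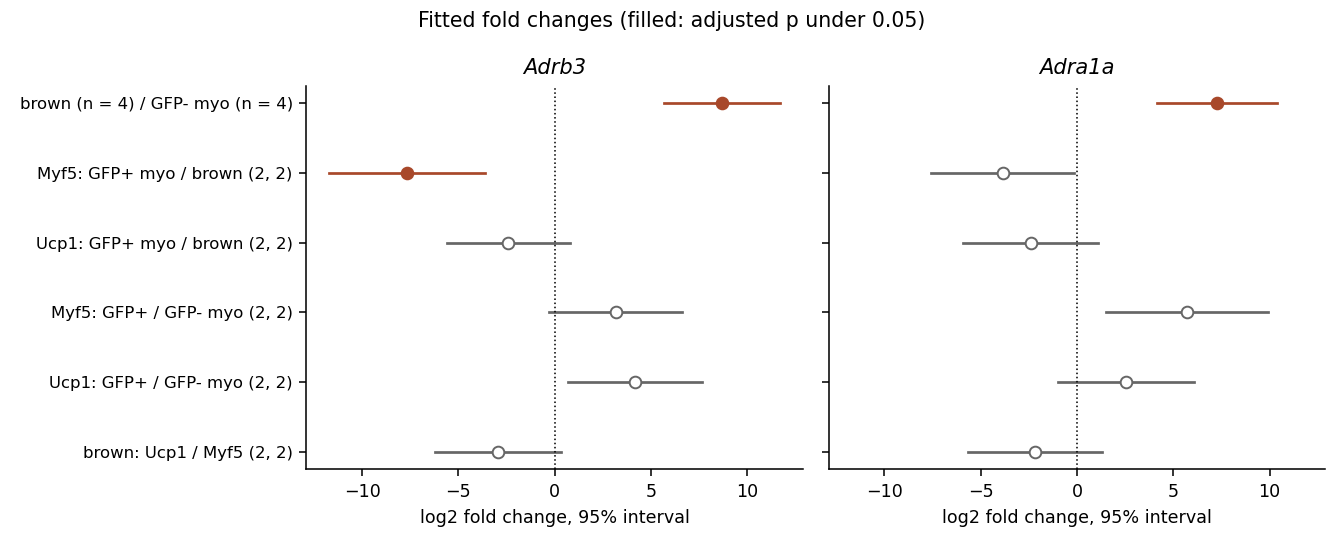
Fitted log2 fold changes of Adrb3 and Adra1a in 6 comparisons, with 95% intervals as lines and the number of libraries on each side in brackets. Filled points have an edgeR adjusted p under 0.05: Adrb3 at 8.69 and -7.66, and Adra1a at 7.27.

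The GFP label within the mammary gland asks how traced and untraced myoepithelial cells of 1 line differ. In the Myf5 line 0 receptor genes were called, and 0% of all genes tested were (smallest edgeR adjusted p of a receptor 0.303). At an unadjusted p under 0.05 there were 2 receptor genes of 8, against 9.28% of all genes. DESeq2 called 2 and limma-voom 1, and the share of all genes that these tools called is not given here. Adra1a and Adra1b lay higher in the GFP-positive libraries without overlap, 2 of 8 against 14.5% of all genes. Adra1a was at 5.77 ± 1.44 against 0.101 ± 0.143 CPM (log2 fold change 5.73, SE 2.15, edgeR adjusted p = 0.429), and Adra1b was at least 86.45-fold higher against 3 counts over both GFP-negative libraries. Adrb3 was at 3.31 ± 4.68 against 0.364 ± 0.515 CPM, and its log2 fold change of 3.16 (edgeR adjusted p = 0.679) turned to -6.02 without Myf5 GFP-positive replicate 2. With the Ucp1 GFP-positive myoepithelial libraries left out of the fit, Adra1a passed (edgeR adjusted p = 0.0476), and the share of all genes called then is not given here. Fibroblast markers moved with the label, at a summed 17740 and 9546 CPM in the GFP-positive against 822 and 478 CPM in the GFP-negative libraries, with none of the 6 at 0. So did the pericyte and vascular smooth muscle markers (6 genes), at a summed 2798 and 2291 against 624 and 389 CPM, and in both lists all 6 genes lay higher without overlap. The summed myoepithelial markers (8 genes) went the other way, at 2540 and 3880 against 7612 and 14900 CPM, as did the endothelial markers, at 717 and 943 against 2705 and 3143 CPM, all 6 lower without overlap. The share of all genes lower without overlap for this label is not given here. The part of other cells in the receptor levels was not tested.

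In the Ucp1 line 0 receptor genes were called between GFP-positive and GFP-negative myoepithelial cells (smallest edgeR adjusted p = 0.0540), against 14.3% of all genes tested. At an unadjusted p under 0.05 there were 5 of 8 (30.9% of all genes), DESeq2 called 4 and limma-voom 5. The share of all genes that DESeq2 and limma-voom called is not given here. Adrb3 lay higher in the GFP-positive cells, at 16.7 ± 4.28 against 0.940 ± 0.0970 CPM (log2 fold change 4.14, SE 1.78, edgeR adjusted p = 0.146, 95% interval 0.66 to 7.62). It was the only receptor gene higher without overlap, as were 11.8% of all genes tested. Adrb1, Adra1b, Adra1d, Adra2a and Adra2c lay lower without overlap, 5 of 8 against 48.1% of all genes. Adrb1 had 301 counts over both GFP-negative libraries and 1 over both GFP-positive libraries, a ratio of 312 (exact 95% counting interval 55.6 to 12370). Adra2a went from 337 counts to 1 (349, interval 62.3 to 13840) and Adra2c from 108 to 1 (112, interval 19.7 to 4463). Adra1b was at least 31.8-fold and Adra1d at least 21.15-fold lower.

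Most cell type markers lay lower in the GFP-positive libraries of the Ucp1 line too, as did 48.1% of all genes without overlap. The summed myoepithelial markers were at 1243 and 3003 CPM in the GFP-positive against 9476 and 10870 CPM in the GFP-negative libraries, all 8 lower without overlap. Luminal and milk genes were lower in 7 of 7 cases without overlap, leukocyte markers in 6 of 6, Schwann cell markers in 4 of 4 and fibroblast markers in 5 of 6. The fibroblast markers summed to 676.5 and 190 against 2914 and 2325 CPM. Endothelial markers overlapped in 5 of 6 cases, and 3 of 6 general adipocyte markers lay higher without overlap. The part of other cells in the receptor levels was not tested.

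Missing counts were common in those 2 libraries for genes of such levels. Of the 1635 genes at 2 to 5 CPM in the Ucp1 GFP-negative cells, 65.9% and 66.9% had fewer than 3 counts in the 2 GFP-positive libraries. In the Myf5 GFP-positive libraries the same share, over 1678 genes, was 30.6% and 7.75%. At 1 to 2 CPM it was 72.2% and 75.95% in the Ucp1 and 50.6% and 22.5% in the Myf5 libraries. At 0.5 to 1 CPM it was 75.3% and 76.8% in the Ucp1 and 61.0% and 33.4% in the Myf5 libraries. Among genes at 5 to 10 CPM it was 51.9% and 54.1% in the Ucp1 line. By mean level in the Ucp1 GFP-negative cells, Adra1b and Adra2c lay at 1 to 2 CPM. Adra1d lay at 0.5 to 1, Adrb1 at 2 to 5 and Adra2a at 5 to 10 CPM. The part of this in the 5 receptor genes was not tested. Adrb3 moved the other way, with 372 and 813 counts in the Ucp1 GFP-positive libraries.

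The effect of the GFP label differed between the lines for Adra1b (edgeR adjusted p = 0.0155 for the difference), 1 of 8 receptor genes against 11% of all genes tested. For Adrb3 the difference was 0.98 on the log2 scale (edgeR adjusted p = 0.950), and it ran from -5.08 without Myf5 GFP-negative replicate 2 to 10.15 without Myf5 GFP-positive replicate 2. Fibroblast and pericyte markers followed the pattern of Adra1b. The summed fibroblast markers were at 17740 and 9546 CPM in the Myf5 GFP-positive libraries, 822 and 478 in their GFP-negative partners, 676.5 and 190 in the Ucp1 GFP-positive and 2914 and 2325 in the Ucp1 GFP-negative libraries. For the same difference of the label's effect, edgeR called 4 of 6 fibroblast and 2 of 6 pericyte and vascular smooth muscle markers. It also called 2 of 6 leukocyte, 2 of 4 Schwann cell and 1 of 8 brown adipocyte markers, in the same direction. In the other direction it called 1 of 6 general adipocyte markers. The part of these cell types in the level of Adra1b was not tested. The traced myoepithelial cells of both lines, set directly beside each other, differed in Adra1b as well. It was at least 125-fold lower in the Ucp1 line (edgeR adjusted p = 0.0292), the 1 receptor gene called against 17.3% of all genes tested. That call was lost without Myf5 GFP-positive replicate 2 (edgeR adjusted p = 0.0603) and with only the 2 compared groups in the fit (0.132). In the same comparison all 6 fibroblast markers were lower in the Ucp1 line without overlap (4 called) and 5 of 6 pericyte and vascular smooth muscle markers (1 called). Called lower there too were 2 of 6 leukocyte, 2 of 4 Schwann cell and 1 of 8 brown adipocyte markers. Called higher were 2 of 6 general adipocyte markers. The part of these cell types was not tested. The share of all genes lower without overlap in that comparison is not given here. The call of the difference between lines was lost without any one of the 4 GFP-negative libraries (0.0583 to 0.0638). Between the GFP-negative cells of the lines 0 receptor genes were called, as were 0% of all genes (smallest edgeR adjusted p of a receptor 1.0, 2 of 8 at an unadjusted p under 0.05 against 3.56% of all genes, and 0 by DESeq2 and by limma-voom). Even so, 7 of 8 lay higher in the Ucp1 line without overlap, against 30.4% of all genes. Myf5 GFP-negative replicate 1 held counts of 2 receptor genes and replicate 2 of 6.

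The brown adipocytes of the lines did not differ in any receptor gene by the test (0 of 8 called, smallest edgeR adjusted p = 0.4996, 0 at an unadjusted p under 0.05 against 13% of all genes, and 0 by DESeq2 and by limma-voom), against 1.32% of all genes tested. The levels still lay apart. Adrb1, Adrb3, Adra1a and Adra1d were lower in both Ucp1 libraries than in both Myf5 libraries, 4 of 8 against 28.3% of all genes. Adra2a and Adra2b lay higher, 2 of 8 against 31.3%, at least 2.82-fold and 2.29-fold. For Adrb3 this was 88.6 ± 79.4 against 680.2 ± 43.2 CPM (log2 fold change -2.94, SE 1.66, edgeR adjusted p = 0.524, 95% interval -6.20 to 0.31). Brown adipocyte markers moved with it. Their summed level (8 genes) was 2733 and 8431 CPM in the Ucp1 libraries and 20670 and 25880 CPM in the Myf5 libraries. The summed endothelial markers went the other way, at 2315 and 1183 against 11.0 and 287 CPM. None of the 6 endothelial markers was at 0 apart from Vwf in Myf5 brown replicate 2, and their part in the receptor levels was not tested.

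**Figure D3:**
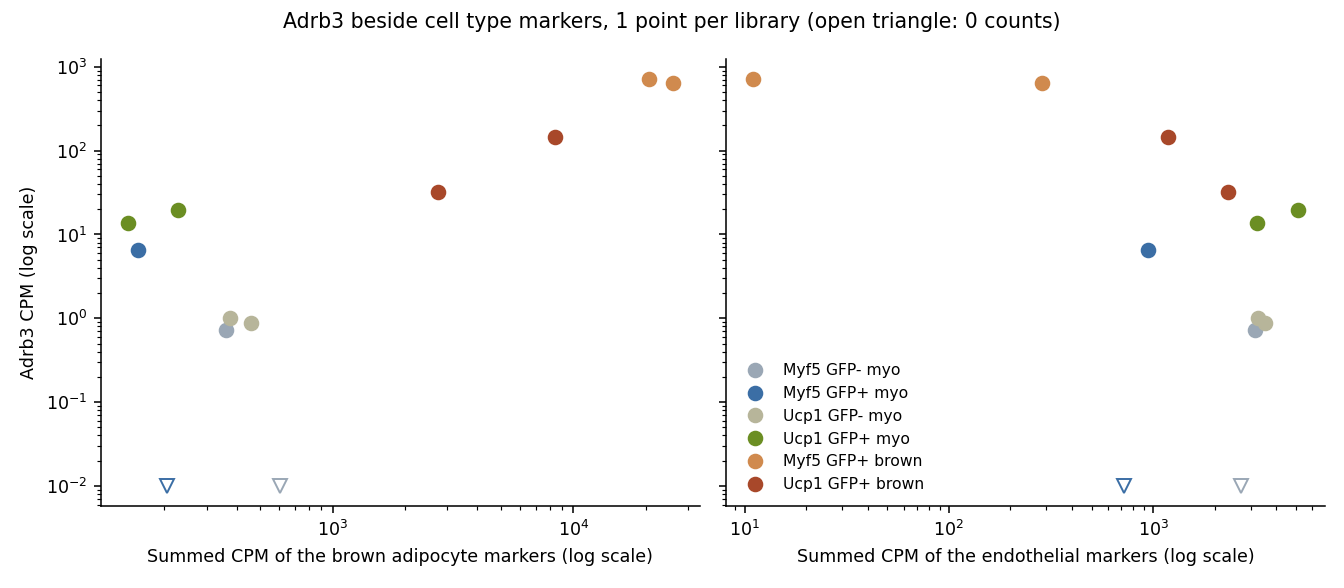
Adrb3 (CPM) against the summed CPM of 8 brown adipocyte markers (left) and 6 endothelial markers (right), all on log axes, with 1 point per library and open triangles for 0 counts. Both Myf5 brown libraries lie above both Ucp1 brown libraries in Adrb3 and in the brown adipocyte markers, while both Ucp1 GFP-positive mammary libraries hold Adrb3 at 13.7 and 19.7 CPM with brown adipocyte markers at 141 and 227 CPM.

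The adipocyte markers of the Ucp1 GFP-positive myoepithelial libraries, which held Adrb3, differed among themselves. Their summed brown adipocyte markers were at 141 and 227 CPM, below the 362 to 607 CPM of the GFP-negative myoepithelial libraries, in which Adrb3 was at or below 1.01 CPM. Cidea made up most of the sum on both sides, at 137 and 184 CPM against 355 to 601 CPM in the GFP-negative libraries. The difference of the sums is thus mainly one of Cidea. Ucp1, Dio2, Elovl3 and Otop1 were at 0 in both Ucp1 GFP-positive libraries. Cox8b lay above all 4 GFP-negative libraries, at 4.59 and 3.06 against 0.0444 to 0.769 CPM. Ppargc1a and Kcnk3 were at 0 in replicate 1 and at 16.4 and 24.3 CPM in replicate 2. Among the 6 general adipocyte markers, Adipoq, which encodes a hormone of fat cells, was at 12.5 and 17.0 CPM against 0 to 3.13 CPM in the GFP-negative libraries. Cidec, a lipid droplet protein gene, was at 8.31 and 15.8 against 0 to 3.25 CPM, and Lipe at 124 and 183 against 63.1 to 72.5 CPM. These 3 lay higher without overlap, Plin1 was at 0 and 4.88 CPM, and Fabp4 and Lep lay lower than in both Ucp1 GFP-negative libraries. The median log2 fold change of the 6 between GFP-positive and GFP-negative cells of the Ucp1 line was 1.45, against -0.69 over all genes tested, and edgeR called 0 of them.

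Compared per length of exon (RPKM, which divides the CPM by the exon length in kilobases), the make-up of the receptor transcripts differed between tissues. The 8 genes summed to 227 and 212 RPKM in Myf5 brown, 12.9 and 47.8 RPKM in Ucp1 brown and 1.43 to 16.8 RPKM in the 8 mammary libraries. Adrb3 made up 92.7% and 90.7% of the sum in Myf5 brown libraries and 74.5% and 89.7% in Ucp1 brown libraries. In Myf5 brown cells the order of levels was Adrb3 at 201.5 ± 12.8 RPKM, Adra1a at 9.52 ± 2.15, Adrb1 at 7.92 ± 0.485 and Adra1d at 0.619 ± 0.397 (SD, n = 2). Adra1a and Adrb1 overlapped, while Adrb3 lay above both without overlap. With the length of the longest transcript in place of all exon bases, Adra1a lay above Adrb1 without overlap, at 19.4 against 9.07 RPKM. Ucp1 brown cells had the same first gene, with Adrb3 at 26.2 ± 23.5 RPKM, and there too Adra1a at 2.10 ± 1.74 and Adrb1 at 1.59 ± 0.825 overlapped.

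In the GFP-negative myoepithelial cells of the Ucp1 line, the mammary group in which all 8 genes were counted in both libraries, the order was Adrb1 at 1.35 ± 0.0225 RPKM, Adra2a at 1.06 ± 0.0348, Adra2b at 0.618 ± 0.260, Adra1d at 0.488 ± 0.243, Adra2c at 0.476 ± 0.105 and Adra1b at 0.413 ± 0.0937. Adrb1 lay above Adra2a, and Adra2a above Adra2b, without overlap. Adra2b, Adra1d, Adra2c and Adra1b overlapped with their neighbours in the order. Adrb3 at 0.279 ± 0.0287 RPKM and Adra1a at 0.0674 ± 0.0508 RPKM, first and second in the brown adipocytes, came last. In the 2 Ucp1 GFP-positive libraries, Adrb3 and Adra2b made up most of the sum, with Adrb3 at 81.1% of it in replicate 1 and Adra2b at 65.2% in replicate 2.

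**Figure D4:**
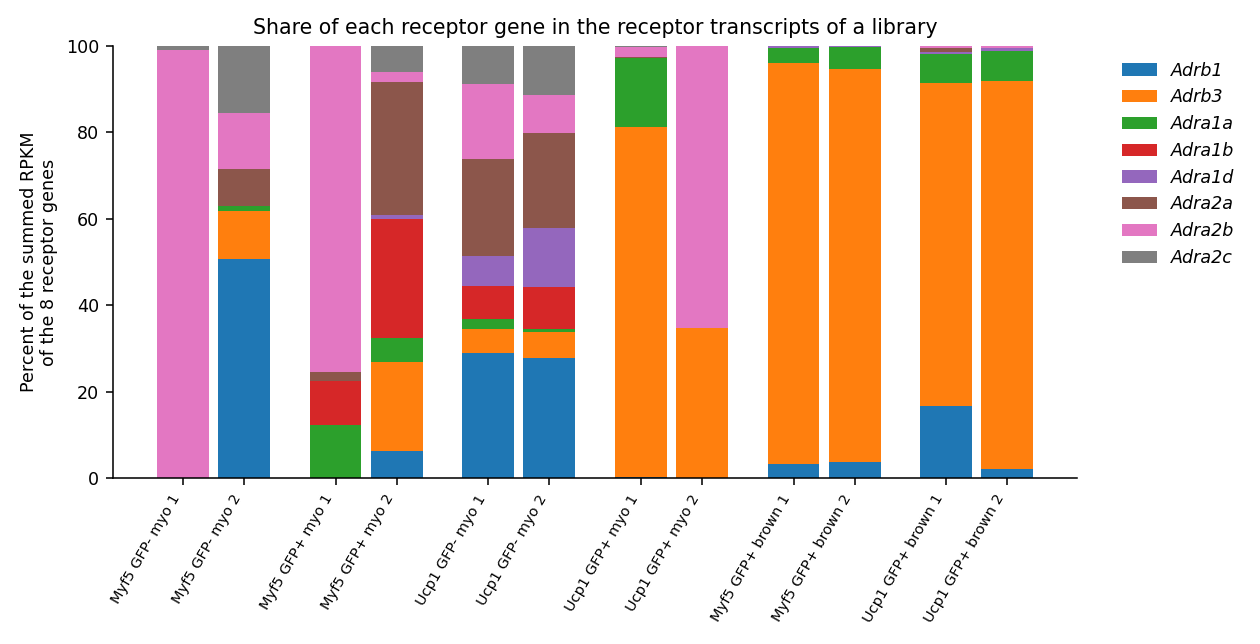
Share of each receptor gene in the summed RPKM of the 8 genes, 1 bar per library. Adrb3 takes 74.5% to 92.7% in the 4 brown libraries and 5.62% and 6.10% in the Ucp1 GFP-negative myoepithelial libraries, and the 2 bars of each GFP-positive myoepithelial group differ.

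The genes that carry the receptor signal onward were taken from lists. Of the 13 genes for Gs and cAMP production, 11 were tested between brown adipocytes and GFP-negative myoepithelial cells, where 3 were called higher and 0 lower (12% of all genes tested were called higher and 26.6% in either direction). Their median log2 fold change was -0.58, against -0.35 over all genes tested. Adcy10, the soluble adenylyl cyclase, was at 20.4 ± 12.9 against 0.335 ± 0.245 CPM (SD, n = 4 and 4, log2 fold change 5.97, edgeR adjusted p = 0.0145). The others were Gnas, the Gs alpha subunit, at a log2 fold change of 8.10 (edgeR adjusted p = 3.64e-04), and Adcy3, a membrane adenylyl cyclase, at 5.13 (0.00242). Exon bases shared with a gene on the opposite strand were 22.0% for Gnas and 22.1% for Adcy3. Gm20721, which shares 99.0% of its exon bases with Gnas, had 0 to 10 counts in mammary and 10396 to 59046 in brown libraries.

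Genes with such shared bases were higher in the brown libraries generally. Over protein-coding genes without shared bases (8028 genes) the median log2 difference of brown and mammary libraries was -0.25. It was 1.02 for 952 genes with 10 to 50% of their exon bases shared and 4.25 for 17 genes with more than 90%. The strand setting of the counting is not given in the sources used here, and counting and tissue cannot be told apart for these genes. Of the 8 receptor genes, none shares exon bases with another gene on its own strand, and 7 share none on the opposite strand.

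Of 11 protein kinase A genes, 2 were called higher in brown adipocytes and 4 lower, against 26.6% of all genes tested called in either direction. Prkar2b, the regulatory subunit typical of adipose tissue, was higher at 869.6 ± 745 against 6.71 ± 4.32 CPM (log2 fold change 6.64, edgeR adjusted p = 0.0189). Akap12, a scaffold that binds the kinase and beta receptors, was lower at 65.7 ± 83.0 against 608 ± 128 CPM (-4.34, edgeR adjusted p = 0.00202). Pkib, an inhibitor of the kinase, was at 0 in all 4 brown libraries and at least 18.5-fold lower. Of 15 phosphodiesterase genes, whose products break down cyclic nucleotides, 3 were higher and 3 lower, against the same 26.6%. Pde3b, the form that insulin acts on in fat cells, was higher at 171 ± 171 against 1.31 ± 0.890 CPM (6.16, edgeR adjusted p = 0.0187). Pde4b was lower at 83.2 ± 100.3 against 484 ± 96.7 CPM (-3.44, edgeR adjusted p = 4.86e-04).

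The counts of the next lists are read against the same 26.6% of all genes called between brown adipocytes and GFP-negative cells. Of 5 Gi and Go alpha subunit genes, 0 were higher and 2 lower, Gnai3 at 62.1 ± 24.9 against 154 ± 35.5 CPM (-1.35 on the log2 scale, edgeR adjusted p = 0.00714) and Gnaz at -6.25 (0.0365). Of 12 genes for Gq and phospholipase C, 0 were higher and 2 lower, Gnaq at -1.99 (edgeR adjusted p = 0.01003) and Plcb4 at -1.42 (0.00814). Of 10 genes of receptor desensitisation, Grk3, a receptor kinase, was higher at 66.0 ± 48.0 against 6.64 ± 1.93 CPM (2.97, edgeR adjusted p = 0.0110). The regulators of G protein signalling Rgs4 and Rgs5 and the kinase Grk5 were lower. Rgs5 is also a marker of pericytes, whose summed markers (6 genes) were at 389 to 1298 CPM in GFP-negative and 173 to 555 CPM in brown libraries. The part of other cell types in these levels was not tested.

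Lipolysis genes, which act at the end of the beta receptor pathway in fat, were higher in brown adipocytes in 5 of 6 cases and lower in 0 (12% of all genes were called higher), with a median log2 fold change of 3.33 against -0.35 over all genes tested. Pnpla2, the lipase that starts the breakdown of triglycerides, was at 4865 ± 2795 against 291 ± 48.1 CPM (3.92, edgeR adjusted p = 7.96e-04). Plin1, which coats the lipid droplet and is phosphorylated by protein kinase A, was at 789 ± 546 against 0.472 ± 0.368 CPM (10.68, edgeR adjusted p = 0.00540). G0s2, an inhibitor of that lipase, was at 328 ± 182 against 31.9 ± 23.4 CPM (3.58, edgeR adjusted p = 3.59e-04). Lipe, the hormone-sensitive lipase, was higher by 3.08 on the log2 scale and shares 15.6% of its exon bases with an opposite-strand gene. Of 14 genes listed as targets of cAMP, 3 were higher (Ucp1, Dio2 and Ppargc1a, genes of heat production) and 4 lower, against 26.6% of all genes called. Those were Nr4a1, Nr4a3, Per1 and Sik1, which are switched on early after a stimulus, with Nr4a1 at 196 ± 204 against 936 ± 435 CPM (-2.49, edgeR adjusted p = 0.00246).

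**Figure D5:**
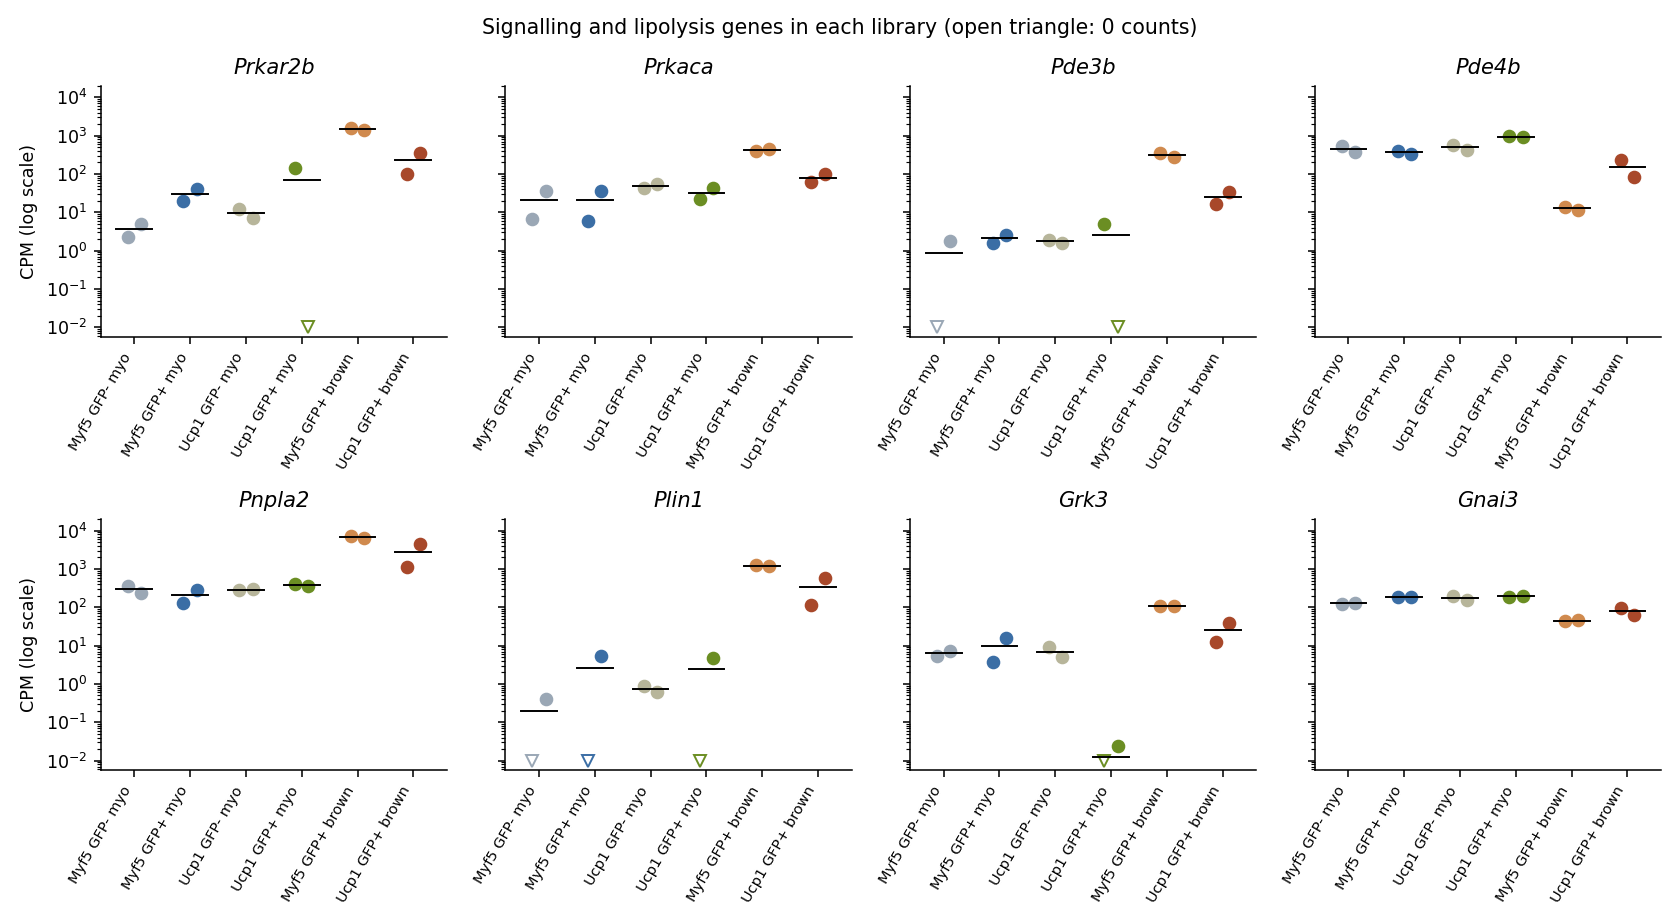
Level of 8 signalling and lipolysis genes in each of the 12 libraries, in CPM on a log axis, drawn as in the plot of receptor levels. Prkar2b, Prkaca, Pde3b, Pnpla2, Plin1 and Grk3 are highest in the 2 Myf5 brown libraries, and Pde4b and Gnai3 are lowest there.

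Signalling genes in the traced myoepithelial cells differed from those of brown adipocytes. In the Myf5 line all 6 lipolysis genes were called lower in the myoepithelial cells (19.8% of all genes were called), with Pnpla2 at 205 ± 107 against 6973 ± 644 CPM (-5.09 on the log2 scale, edgeR adjusted p = 0.00242). Prkaca, the catalytic subunit of protein kinase A, was at 20.7 ± 21.1 against 422 ± 32.9 CPM (-4.35, edgeR adjusted p = 0.0189). Pde3a, a cAMP phosphodiesterase of smooth muscle and heart, was higher there at 82.1 ± 0.893 against 5.62 ± 0.868 CPM (3.87, edgeR adjusted p = 0.0125). In the Ucp1 line 3 of 6 lipolysis genes were called lower in the myoepithelial cells and 0 higher (27.8% of all genes were called), with Pnpla2 at 383 ± 41.7 against 2757 ± 2293 CPM (-2.85, edgeR adjusted p = 0.0132). Between GFP-positive and GFP-negative cells of the Ucp1 line, 5 of 15 phosphodiesterase genes were called lower and 0 higher (Pde1a, Pde1b, Pde3a, Pde5a and Pde7a, each at 0 in both GFP-positive libraries). Of all genes tested 14.3% were called for that label, and 48.1% lay lower without overlap, as did 9 of the 15. In the Myf5 line 0% of all genes tested were called for that label, so none of the 9 lists could hold a called gene.

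Genes for making, taking up and breaking down catecholamines were partly uncounted. Dbh, which makes noradrenaline, had 0 counts in all 12 libraries, and Th, which makes its precursor, was at 0.24 and 0.18 CPM in 2 GFP-negative libraries and at 0 in the other 10. Of the 8 genes of this list tested between brown and GFP-negative cells, 3 were higher and 1 lower, against 26.6% of all genes called. Maob, a monoamine oxidase, was higher at 91.3 ± 45.6 against 2.02 ± 0.903 CPM (5.50 on the log2 scale, edgeR adjusted p = 0.00126). Slc22a3, a carrier that takes up catecholamines outside neurons, was at 45.4 ± 24.3 against 0.761 ± 1.24 CPM (8.84, edgeR adjusted p = 0.0167). Shared opposite-strand exon bases were 9.31% for Slc22a3 and 0% for Maob. Slc6a2, the noradrenaline carrier of neurons, was at 0 in all 4 brown libraries and at least 11.6-fold lower there.

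The genes whose levels followed a receptor gene most closely over the 12 libraries were taken from 12860 nuclear protein-coding genes, by Pearson correlation of log2(CPM + 1). For Adrb3 they were Dlat (r = 0.977), Mcur1 (0.975) and Crls1 (0.971), and for Adra1a Nol3 (0.977), Prkar2b (0.964) and Sfxn1 (0.952). Necab1 (0.976) came first for Adrb1 and Foxo6 (0.892) for Adra1d. For Adra1b the first was Cpz (0.987), for Adra2a Ect2 (0.964) and for Adra2b 1700028J19Rik (0.972). The first gene for Adrb3, Dlat, had a median of 65.5 CPM in the 8 mammary and 1122 CPM in the 4 brown libraries, and Cpz a median of 0.840 and 0 CPM. These correlations describe 12 libraries that share tissue, driver line and depth in groups.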

How the data were processed

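RNA from 12 libraries of sorted mouse cells (6 groups of 2) was turned into cDNA and amplified with a SMART-Seq v4 kit, per the labels' protocols. The authors deposited 1 table of whole-number read counts per gene for each library. TopHat, HTSeq and DESeq2 and the mm10 build are named per the submitters' processing notes. Versions and the strand setting of the counting: not given in the sources used here. Gene symbols, positions and exon lengths came from GENCODE M21.

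From the deposited counts, all 12 libraries were fitted together with edgeR 4.0.16 (quasi-likelihood test, TMM factors, filterByExpr at a minimum count of 10) under R 4.3.3. P-values were adjusted by the Benjamini-Hochberg method over the 16953 genes that passed, which include all 8 receptor genes, and a call is an adjusted p under 0.05. DESeq2 1.42.0, limma-voom (limma 3.58.1), other scalings and filters, fits of the compared groups alone and fits without each library were alternatives. The procedure was run on simulated data for the comparison of brown with GFP-negative cells only, with the same scatter for all genes and changes in well-counted genes. That run does not cover low counts or the other comparisons. CPM and RPKM use TMM-scaled totals. Where a group held 0 counts over its libraries, folds are bounds against 3 counts over the group. With 1 to 3 counts, the ratio is given with an exact 95% counting interval. These counting intervals and bounds cover counting error only. The 95% intervals of fitted fold changes are the fold change plus or minus 1.96 SE, a normal approximation. They are narrower than the quasi-likelihood test implies, so an interval can leave out 0 where the unadjusted p is above 0.05.

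The named signalling genes are up to 4 called members of each list with the smallest adjusted p in a comparison, beside marker genes and, per receptor, the 3 protein-coding genes of closest pattern. Sik1, Nr4a3, Ppargc1a, Pde7a, Gm20721, Th, Dbh and the genes of the signalling plot were chosen after their values were seen. The receptor genes and the lists were chosen with earlier results of these data known. Some items, withheld for evaluation, are not reported here.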

Additional observations from a re-analysis of the deposited data

Results flagged for a closer look

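The effect of the GFP label on Adra1b differed between the driver lines (edgeR adjusted p = 0.0155 for the difference of the effects). Both Myf5 GFP-positive libraries held the gene (35 and 250 counts) and neither GFP-negative partner did. In the Ucp1 line both GFP-negative libraries held it (39 and 53 counts) and neither GFP-positive library did. Leaving out 1 library at a time gave adjusted p-values from 0.0118 to 0.0638, and each of the 4 GFP-negative libraries, when left out, ended the call. With only the compared groups in the fit it was 0.0380. DESeq2 gave 2.39e-04 and limma-voom 2.31e-04, while edgeR with the replicate number as a block gave 0.0935 and no call. Fibroblast markers followed the same pattern. Their summed level (6 genes) was 17740 and 9546 CPM in the Myf5 GFP-positive against 822 and 478 CPM in the GFP-negative libraries, and 676.5 and 190 against 2914 and 2325 CPM in the Ucp1 line. For the same difference edgeR called 4 of 6 fibroblast and 2 of 6 pericyte and vascular smooth muscle markers, against 11% of all genes tested. It also called 2 of 6 leukocyte, 2 of 4 Schwann cell and 1 of 8 brown adipocyte markers, in the same direction. In the other direction it called 1 of 6 general adipocyte markers. The part of these cell types in the level of Adra1b was not tested.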

How the results depend on the processing

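The number of receptor genes called depended on the tool and on single libraries in 7 of the 9 comparisons. For brown against GFP-negative cells with only the compared groups in the fit, 51% of all genes were called. For the other alternative runs that share is not given here. The counts below therefore show how calls depend on the run, not a trait of the receptors. Between brown and GFP-negative myoepithelial cells it was 2, 6 with only the compared groups in the fit, and 1 to 2 when 1 library was left out. Between Myf5 GFP-positive myoepithelial cells and brown adipocytes it was 2, 4 by DESeq2, 6 by limma-voom, 5 without the Ucp1 GFP-positive libraries and 0 to 1 with 1 library left out. In the Ucp1 line that count was 0, 2 by DESeq2, 3 by limma-voom and 0 to 2 with 1 library left out. For the GFP label it was 0 in the Myf5 line, 2 by DESeq2, 1 by limma-voom and 1 without the Ucp1 GFP-positive libraries. In the Ucp1 line it was 0, 4 by DESeq2, 5 by limma-voom, 3 with only the compared groups and 0 to 1 with 1 library left out. Between the GFP-positive myoepithelial cells of the lines it was 1, 3 by DESeq2, 2 by limma-voom, 0 with only the compared groups and 1 to 2 with 1 library left out. For the difference of the GFP effect it was 1, 3 by DESeq2 and by limma-voom, and 0 to 3 with 1 library left out. The other 2 comparisons stayed at 0 in every alternative run.

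With the replicate number as a block, the counts were 1 for Myf5 GFP-positive myoepithelial against brown cells, 0 between the GFP-positive myoepithelial cells of the lines and 0 for the difference of the GFP effect, where the edgeR adjusted p of Adra1b became 0.1385, 0.1322 and 0.0935. Same-numbered GFP-positive and GFP-negative libraries deviated together at r = 0.32 in the Myf5 and 0.05 in the Ucp1 line over 16953 genes, and the labels name no shared animal, so the number is not taken as a pairing. With 1 library left out, the log2 fold change of Adrb3 ran from -6.02 (without Myf5 GFP-positive replicate 2) to 9.20 for the Myf5 GFP label, where it was 3.16 with all. For the difference of the GFP effect it ran from -5.08 (without Myf5 GFP-negative replicate 2) to 10.15, from 0.98. Those lone libraries are assumed to vary like the other groups. Fitted fold changes were recomputed for receptor genes that did not overlap between the groups, apart from those given as count ratios or bounds such as Adra1b, and also for Adrb1 between brown and GFP-negative cells, and for Adrb3 in the Myf5 label and the difference between lines. Of these values, 266 kept direction and side of the threshold, 9 gained a call, 7 lost one and 2 turned. The cause was not tested.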
